A study of Mus musculus with 4 samples.

Results

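miR-221 and miR-222 (mmu-miR-221 and mmu-miR-222) are a pair of mouse microRNAs (miRNAs) made from neighbouring hairpins on the X chromosome. They were followed here in cultures of synovial fibroblasts, which line the joint, and were the 2 rows kept by name, arm marks removed, of 590 mature miRNAs listed in any of 4 small RNA libraries. Of the 4 libraries, 2 came from wild-type (WT) mice and 2 from littermates that carry the TghuTNF transgene, which makes human TNF and leads to arthritis. All mice were 8 weeks old and of a mixed CBA/J and C57BL/6/J strain, and all cultures were at passage 4. The replicates are biological per the series design. The sources used here give neither the promoter that drives the transgene nor the sex of the mice. In such bulk cultures, fewer cells of a type and less RNA per cell cannot be told apart.

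miRNAs are cut from hairpin transcripts and loaded into Argonaute proteins, where bases 2 to 8 of the mature strand, the seed, select target messenger RNAs for repression. miR-221 and miR-222 are known as repressors of the cell cycle inhibitors Cdkn1b and Cdkn1c and of the receptor Kit, and both are known to respond to growth factor and inflammatory signals. They are known to be processed from a shared primary transcript, after which each strand is cut, loaded and degraded on its own.

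The mature sequences, from RefSeq (GRCm38.p6, minus strand), show what the members share. Capitals mark the seed, which is the same in both.
miR-221: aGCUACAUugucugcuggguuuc
miR-222: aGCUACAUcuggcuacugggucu
The first 8 bases were identical and no longer run was shared. Capitals in the next lines mark the bases that differ at the same position, counted from 1 at the 5′ end.
miR-221: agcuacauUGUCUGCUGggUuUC
miR-222: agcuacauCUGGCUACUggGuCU
The mature strands differed at 12 of 23 positions, an identity of 47.8%, and the run of differences opened with U9C, G10U and U11G. Slid along each other without gaps, with at least 15 bases overlapping, they still had 10 mismatches or more. The authors' matching allowed at most 2 mismatches, so by these sequences a full-length read of one member was too far from the other to be counted for both. Both mature strands have 23 bases in this table. Ligation and amplification can favour one sequence over another, so a ratio of matches is no molar ratio.

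Of 1679 mature miRNAs in the RefSeq table, 3 carried this seed. The third was miR-1928, a strand of 17 bases made from chromosome 1 that none of the 4 libraries listed. It had 3 mismatches to miR-221 and 9 to miR-222 over its length. Among miRNAs whose names, without arm marks or hairpin numbers, the libraries listed, the closest sequences had 5 mismatches over 15 or 16 bases. They were miR-30c-5p, miR-291a-3p, miR-346-5p and miR-666-3p to miR-221, and miR-1947-3p to miR-222. An arm named here need not itself be listed. None of the listed names with a sequence in this table thus came within the 2 mismatches that the matching allowed.

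The mature strand lies on the 3′ arm of each hairpin, shown here in capitals, and each file listed 1 arm per hairpin, under the names miR-221 and miR-222.
Mir221: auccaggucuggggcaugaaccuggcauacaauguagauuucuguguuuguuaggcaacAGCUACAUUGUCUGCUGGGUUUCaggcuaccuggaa
Mir222: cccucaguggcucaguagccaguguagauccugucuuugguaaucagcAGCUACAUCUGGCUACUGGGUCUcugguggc
In GRCm38, Mir221 lies at chrX:19146294-19146388 and Mir222 at chrX:19146893-19146971, both on the minus strand, with 504 bases between them. Mir222 is thus the upstream hairpin in the direction of transcription. No other annotated gene overlaps the pair. The nearest annotated gene on the upstream side is Gm14636, a processed transcript on the same strand at chrX:19156981-19167241 that ends 10.0 kb before Mir222, and the nearest on the other side is the pseudogene Gm5383, 0.203 Mb away. No other hairpin of a listed miRNA lies closer than 11.3 Mb.

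Library totals ran from 16680860 to 27362819 matches, and the files listed 532 to 556 miRNAs. A count of 0 allows up to 3 counts, or 0.110 to 0.180 CPM (counts per 1000000 matches). Reads carry no molecular identifiers, so the intervals and limits below cover counting error only. All 8 strands listed as fibroblast or mesenchymal markers were present and tested, with miR-21 at 170381 ± 14260.0 CPM in WT and 185228 ± 7858 CPM in TghuTNF (SD, n = 2). Of the 8, 5 did not pass. The strands miR-140 (1.88-fold, edgeR adjusted p = 0.024) and miR-140* (1.75-fold, 0.012) of a cartilage-associated hairpin rose. Without TghuTNF replicate 2 their rises were 1.42-fold and 1.43-fold. miR-214 fell 1.90-fold (edgeR adjusted p = 0.037), a call lost with limma-voom (adjusted p = 0.054), and its fall was 1.44-fold without WT replicate 1. In TghuTNF replicate 2, 11.7% of all matches had 2 mismatches, against 8.21% to 8.73% in the other libraries.

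miR-221 was counted 2035 and 5608 times in the WT libraries and 15168 and 17851 times in the TghuTNF libraries. Scaled by library with TMM factors, these counts were 124 and 206 CPM in WT and 549 and 793 CPM in TghuTNF. Both TghuTNF libraries lay above both WT libraries, and the lowest TghuTNF value was 2.67 times the highest WT value. The WT libraries themselves differed 1.66-fold and the TghuTNF libraries 1.44-fold. The means were 165 ± 58.1 CPM in WT and 671 ± 172 CPM in TghuTNF (SD, n = 2). On the log2 scale miR-221 rose by 2.02 ± 0.28 (SE, edgeR adjusted p = 0.00082).

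miR-222 was counted 3560 and 6420 times in the WT libraries and 21201 and 19154 times in the TghuTNF libraries. The scaled values were 217 and 236 CPM in WT and 768 and 850.4 CPM in TghuTNF. The libraries of a genotype lay close together, 1.09-fold apart in WT and 1.11-fold apart in TghuTNF, and the gap between the closest libraries of different genotype was 3.26-fold. The log2 fold change was 1.84 ± 0.19 (SE, edgeR adjusted p = 0.00011), from 226 ± 13.5 CPM in WT to 809 ± 58.3 CPM in TghuTNF (SD, n = 2). miR-222 thus rose with the tighter replicates of the pair, and miR-221 with the wider ones.

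Over all 442 tested miRNAs, 21 were called higher (4.75%) and 38 lower (8.6%) at an adjusted p of 0.05, 13.3% in all. The groups did not overlap for 60.6% of them, so the lack of overlap of the pair is by itself common in these libraries. By p, miR-222 ranked 5 and miR-221 ranked 10 of the 442, and by size of rise miR-221 ranked 7 and miR-222 ranked 10. When each library was left out in turn, the rise of miR-221 stayed between 3.25-fold and 5.40-fold and that of miR-222 between 3.33-fold and 3.73-fold. Such a fit leaves 1 library in a genotype, which is assumed to vary like the other genotype, so its p is no measure of stability.

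**Figure D1:**
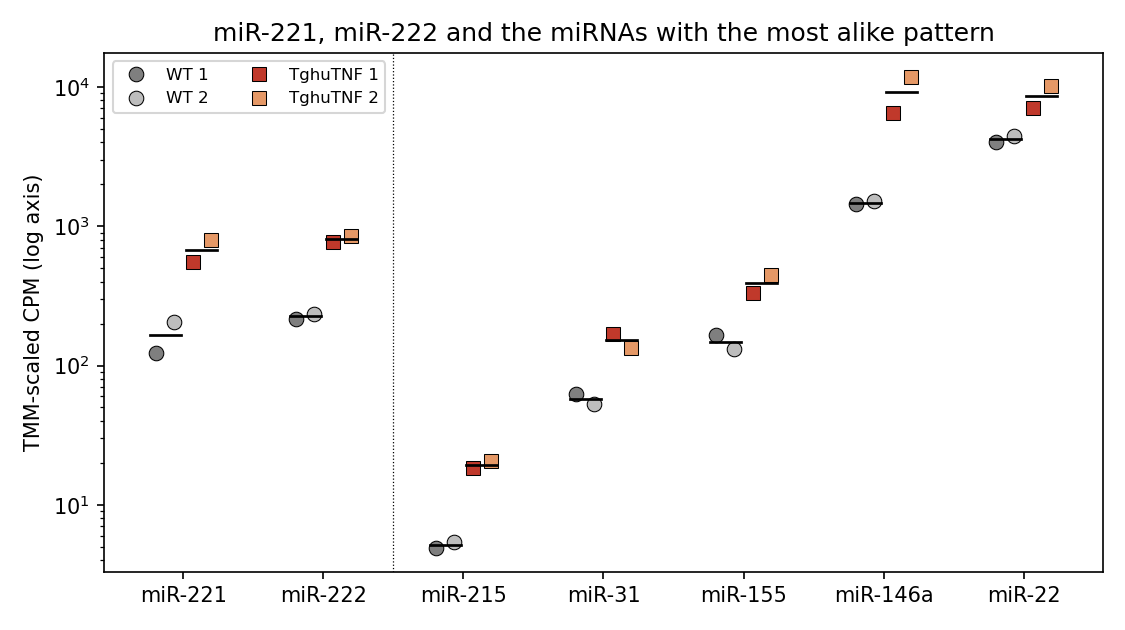
TMM-scaled CPM (log axis) of miR-221 and miR-222, left of the dotted line, and of the other miRNAs named for the most alike pattern; each point is 1 library (circles WT, squares TghuTNF) and bars are genotype means. For each of these miRNAs both TghuTNF libraries sit above both WT libraries, and miR-222 has its libraries closer together (217 and 236, 768 and 850.4 CPM) than miR-221 (124 and 206, 549 and 793 CPM).

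Among the miRNAs listed in a library, ordered by count, the pair moved up. miR-221 held place 125 of 532 and 105 of 541 in the WT libraries, and 75 of 556 and 68 of 545 in the TghuTNF libraries. miR-222 held place 105 and 102 in WT, and 68 and 66 in TghuTNF. Added together, as strands with 1 seed, the members made 341 and 442 CPM in WT and 1317 and 1643 CPM in TghuTNF. Both members thus held places 102 to 125 in WT fibroblasts, and stood among the 75 most counted miRNAs in TghuTNF fibroblasts. Seeds were not ranked.

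**Figure D2:**
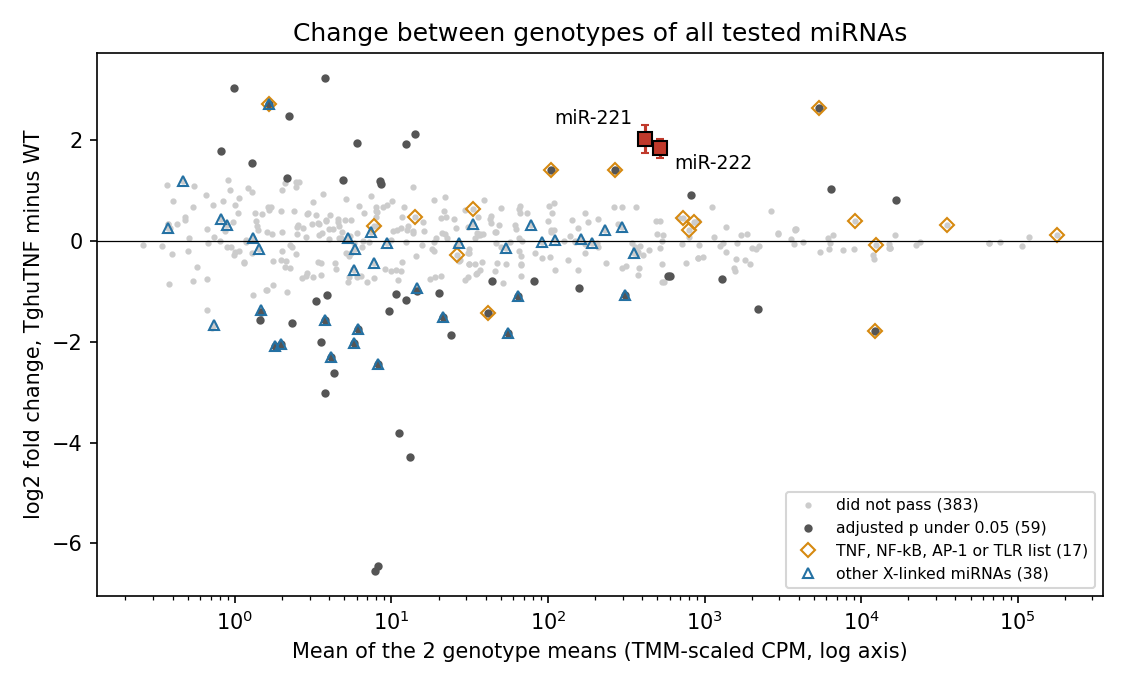
Log2 fold change (TghuTNF minus WT) against mean TMM-scaled CPM (log axis) for the 442 tested miRNAs, with the pair as red squares (bars are SE), the inflammatory list as diamonds and the other X-linked miRNAs as triangles. The pair lies at 2.02 and 1.84. Of the 12 other X-linked miRNAs called, 11 lie below 0, and 8 of these are strands of hairpins within 6.20 kb. Over all miRNAs, 38 of the 59 called lie below 0.

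The ratio of miR-221 to miR-222 within a library does not depend on depth or scaling. It was 0.572 in WT replicate 1 (exact 95% interval 0.541 to 0.604) and 0.874 in WT replicate 2 (0.843 to 0.906). In TghuTNF it was 0.715 in replicate 1 (0.701 to 0.731) and 0.932 in replicate 2 (0.913 to 0.951). miR-222 was the more counted member in all 4 libraries. The intervals of the 4 libraries did not overlap, so the ratio differed between libraries of one genotype by more than counting error, and the genotypes overlapped, with WT replicate 2 above TghuTNF replicate 1.

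On the log2 scale the ratio averaged -0.50 ± 0.43 over the WT libraries and -0.29 ± 0.27 over the TghuTNF libraries (SD, n = 2), which is a difference of 0.21 (two-sided exact permutation p = 0.67, where 4 libraries allow no p below 0.33). The difference was -0.097 without WT replicate 1, 0.51 without WT replicate 2, 0.40 without TghuTNF replicate 1 and 0.018 without TghuTNF replicate 2, so its direction rests on WT replicate 1. Libraries of the same genotype were 0.61 (WT) and 0.38 (TghuTNF) apart, each more than the genotypes were. No change of the ratio was thus detectable beside this spread, which is the spread of miR-221 more than of miR-222.

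**Figure D3:**
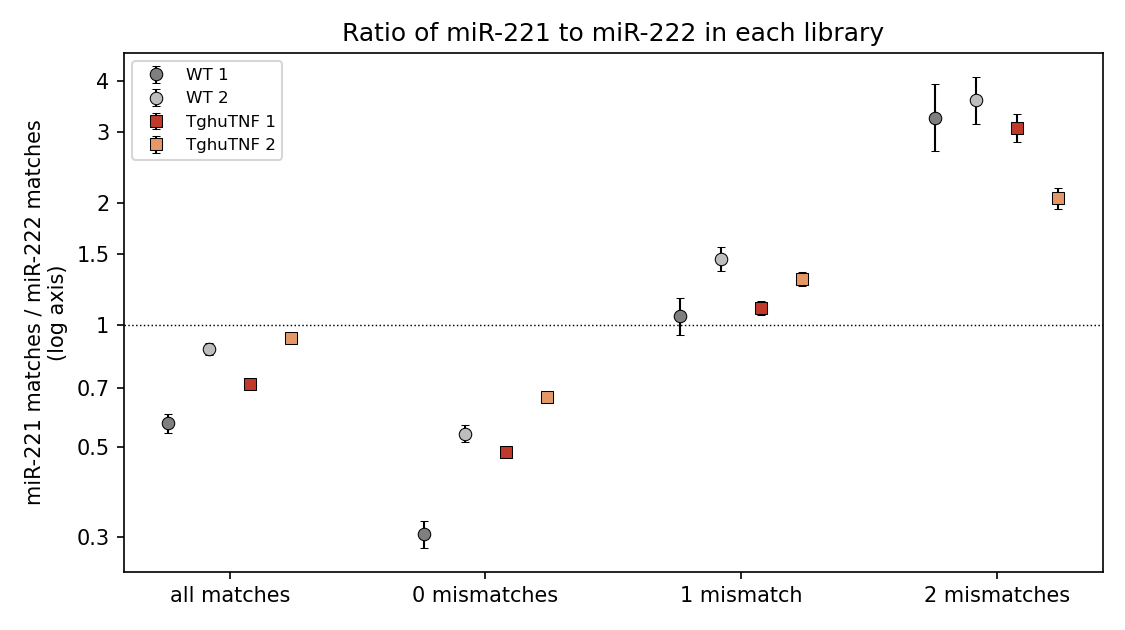
Ratio of miR-221 to miR-222 matches (log axis) in each library, for all matches and for matches with 0, 1 and 2 mismatches; bars are exact 95% intervals of counting error. With all matches the 4 ratios run from 0.572 to 0.932 and the genotypes interleave, and the ratio is below 1 for perfect matches and above 1 for matches with mismatches.

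Other miRNAs with a close neighbour give a rough scale for this ratio. Among tested miRNAs, 132 pairs of neighbouring hairpins lay on one strand within 10 kb, made of 161 distinct miRNAs, and their log2 ratios were compared between genotypes in 1 fit with limma. The ratio of miR-221 to miR-222 differed by 0.21 ± 0.29 (SE, 95% interval -0.57 to 0.98, limma adjusted p = 0.86), a size that 60 of the other pairs exceeded. The median size of the difference over all pairs was 0.19. The gap between the WT libraries, 0.61, was wider than the median of the pairs (0.22) and ranked 18 of 132. The gap between the TghuTNF libraries, 0.38 against a median of 0.27, ranked 50. These medians and ranks include pairs with near-equal values, such as let-7f and let-7a (73355 and 73769 CPM in WT replicate 1). The log2 ratio of let-7f to let-7a differed by 0.0016 between the WT libraries. Whether the same reads were counted for both was not tested.

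Of the 132 pairs, 3 were called (2.27%): miR-194 with miR-215, miR-329 with miR-494, and miR-543 with miR-495, named after their values were seen. With any 1 library left out, so that 3 libraries entered the fit, 0 pairs were called. For miR-221 and miR-222 the interval given above allows differences of up to 0.98 on the log2 scale.

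**Figure D4:**
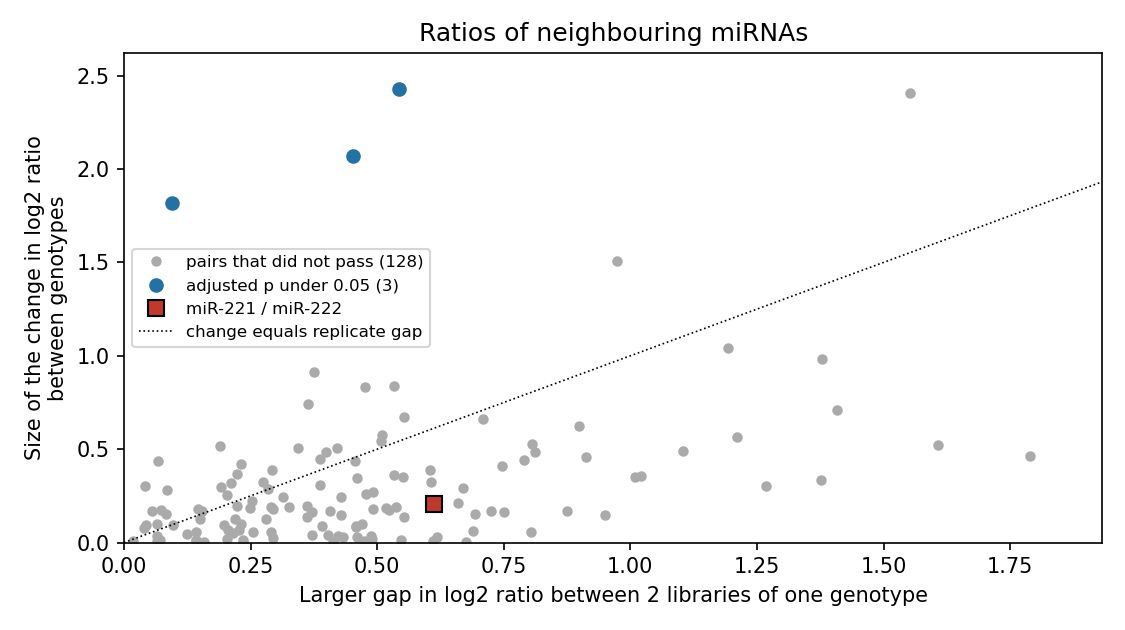
Size of the difference in log2 ratio between genotypes against the larger of the 2 gaps between libraries of one genotype, for 132 pairs of neighbouring miRNAs (points); the dotted line marks equality. The pair (red square) lies below the line, with a difference of 0.21 and a gap of 0.61, and the 3 called pairs lie above it.

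The files split each count into matches with 0, 1 and 2 mismatches, a second readout of the pair. miR-222 was matched perfectly in 76.2% (exact 95% binomial interval 74.7% to 77.6%) and 73.7% (72.6% to 74.8%) of its counts in WT, and in 75.2% (74.6% to 75.7%) and 68.6% (67.9% to 69.3%) in TghuTNF. For miR-221 the perfect share was 40.5% (38.4% to 42.7%) and 45.5% (44.2% to 46.8%) in WT, and 50.9% (50.1% to 51.7%) and 49.0% (48.2% to 49.7%) in TghuTNF. miR-221 thus had the lower perfect share in all 4 libraries. Among 307 tested miRNAs with a mean count of at least 100, the median perfect share was 64.7% to 68.6% per library, which lay between the members in every library. The authors' mature sequences and their miRBase release are not stated in the labels or file headers, so the ends against which mismatches were counted may differ from the sequences printed above.

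Matches with 2 mismatches made 23.1% and 18.0% of miR-221 in WT and 16.8% and 19.7% in TghuTNF. For miR-222 they made 4.07% and 4.39% in WT, 3.92% in TghuTNF replicate 1 and 8.92% in TghuTNF replicate 2. The last value stood apart from the other libraries of miR-222, and the median over the 307 miRNAs also stood higher in that library, at 9.06% against 4.57% to 5.25%. In that library miR-222 and the median of the 307 miRNAs thus both had more 2-mismatch matches, whereas the 2-mismatch share of miR-221 was highest in WT replicate 1.

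**Figure D5:**
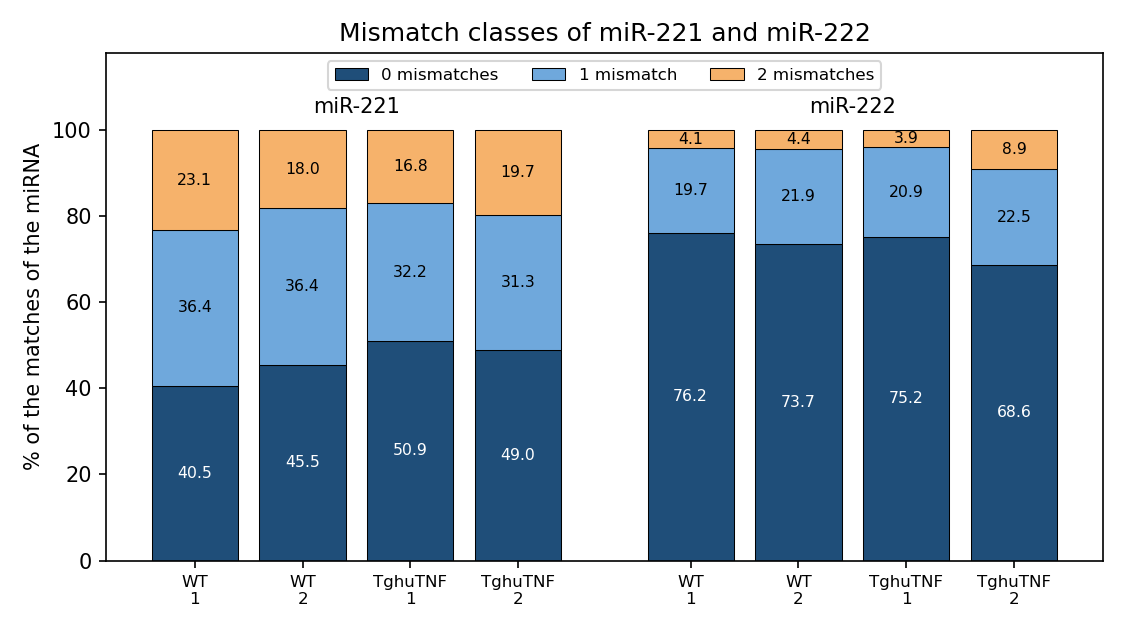
Share of the matches of miR-221 and miR-222 with 0, 1 and 2 mismatches in each library (stacked bars, percent of that miRNA's matches in that library). The perfect share of miR-221 is 40.5% to 50.9% and that of miR-222 68.6% to 76.2%, and the 2-mismatch share of miR-222 is highest in TghuTNF replicate 2, at 8.92%.

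The log2 odds of a perfect match were 0.40 ± 0.22 higher in TghuTNF for miR-221 (SE, 95% interval -0.18 to 0.99, limma adjusted p = 0.79) and 0.22 ± 0.26 lower for miR-222 (difference -0.22, interval -0.89 to 0.46, limma adjusted p = 0.82). The genotypes did not overlap for miR-221, with both TghuTNF libraries higher, and overlapped for miR-222, where 34.8% of 250 miRNAs had genotypes that did not overlap. The odds were lower in TghuTNF for 192 of the 250, with a median log2 difference of -0.19, so the difference of miR-222 lay near the median and that of miR-221 had the opposite sign. Of these 250 miRNAs, which had at least 20 perfect and 20 mismatched matches in every library, 0 passed limma's test (0%), with 9 at an unadjusted p under 0.05 and neither miR-221 nor miR-222 among them. Without TghuTNF replicate 2 the difference of miR-222 was 0.017.

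The rise was also taken class by class, with a separate edgeR fit across all miRNAs for each. With perfect matches miR-221 rose by 2.22 on the log2 scale (edgeR adjusted p = 0.0029) and miR-222 by 1.79 (edgeR adjusted p = 0.00062), where 13.2% of 380 miRNAs were called. With 1-mismatch matches alone miR-221 rose by 1.79 (edgeR adjusted p = 0.0064) and miR-222 by 1.87 (edgeR adjusted p = 0.0012), where 6.25% of 352 were called. With 2-mismatch matches alone the log2 fold changes were 1.57 for miR-221 and 2.05 for miR-222, and neither passed (edgeR adjusted p = 0.27 for each). That fit called 0 of 297 miRNAs, with 27 at an unadjusted p under 0.05. From the perfect to the 2-mismatch class the fold change of miR-221 became smaller and that of miR-222 larger, and this trend was not tested.

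The ratio followed the class. With perfect matches it was 0.304 and 0.539 in WT and 0.485 and 0.666 in TghuTNF. In this class miR-222 was thus the more counted member by a wider margin than with all matches. With 1 mismatch the ratio was 1.05 and 1.45 in WT and 1.10 and 1.30 in TghuTNF. With 2 mismatches it was 3.24 and 3.59 in WT and 3.07 and 2.06 in TghuTNF, where both TghuTNF libraries were lower (log2 difference -0.44, two-sided exact permutation p = 0.33, the smallest that 4 libraries allow). The lower value belongs to TghuTNF replicate 2, the library with the most 2-mismatch matches. With perfect and 1-mismatch matches together the ratio was 0.458 and 0.749 in WT and 0.619 and 0.822 in TghuTNF. miR-222 thus had more matches in all 4 libraries whether 0, up to 1 or up to 2 mismatches were allowed, and miR-221 had more in the 1-mismatch and 2-mismatch classes taken alone.

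The miRNAs whose pattern over the 4 libraries was most like that of the pair were taken by the smallest root mean square difference of centred log2 CPM, among 249 others with a mean of at least 10 CPM. For miR-222 the closest was miR-215, an epithelial and p53-induced miRNA, at 0.042, then miR-221 (0.28), miR-155 (0.29), miR-31 (0.31) and miR-22 (0.44), against a median of 0.95. For miR-221 they were miR-215 (0.25), miR-222 (0.28), miR-146a (0.37), miR-155 (0.50) and miR-22 (0.56), against a median of 1.10. Each member was thus second in the other's order. The measure includes the genotype difference itself, so these distances describe the 4 libraries and support nothing.

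miR-215 stood far lower than the pair, at 4.87 and 5.40 CPM in WT and 18.3 and 20.6 CPM in TghuTNF, and 93.1% of its matches were perfect. miR-31, an inducible miRNA of stromal cells, stood at 62.5 and 52.5 CPM in WT and 169 and 133 CPM in TghuTNF. miR-22 went from 4003 and 4449 CPM to 7061 and 10078 CPM. miR-155, an inflammatory miRNA of the Bic transcript, stood at 164 and 132 CPM in WT and 334 and 448 CPM in TghuTNF. Its level was close to that of miR-221 in WT and lower in TghuTNF, where miR-221 stood at 549 and 793 CPM. Of the matches of miR-155, 24.7% were perfect. In CPM, both members of the pair, miR-215, miR-146a, miR-155 and miR-22 had TghuTNF replicate 2 above replicate 1, whereas miR-31 had the opposite order.

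miR-221 and miR-222 are often listed with miRNAs induced by TNF, NF-kB, AP-1 or Toll-like receptor signalling. Of 18 others on such a list, 17 were tested, 4 rose, 2 fell and 11 did not pass, against 4.75% and 8.6% called higher and lower over all miRNAs. The list had a median log2 fold change of 0.38, against 0.0056 over all tested miRNAs, and both members of the pair lay above that. Those that rose were miR-146a, which represses Irak1 and Traf6 (6.22-fold), miR-223, a myeloid miRNA (6.60-fold, from 0.45 to 2.83 CPM), miR-155 (2.64-fold) and miR-31 (2.63-fold). The rise of miR-223 was 4.61-fold when WT replicate 2 was left out. miR-146b fell 3.47-fold and miR-203 fell 2.69-fold. miR-21, the most abundant on the list, stood at 0.12 ± 0.14 (SE). The 4 were set apart by their own rise, so that the pair shares their direction says nothing about the list, of which 2 fell and 11 did not pass. Each member of the pair was more abundant than miR-155 and less abundant than miR-146a in both TghuTNF libraries.

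A second list, which is not complete, held other miRNAs known to repress the cell cycle inhibitors Cdkn1a, Cdkn1b or Cdkn1c, the best known targets of the pair. All 11 were tested and 0 passed with edgeR, against 13.3% over all miRNAs. Of the 11, 2 had an unadjusted edgeR p under 0.05, against 128 of 442 over all miRNAs. With DESeq2 and limma-voom 0 passed, against 15.6% and 12.9% over all miRNAs. The median log2 fold change of the 11 was -0.29. The smallest p belonged to miR-92b (-0.76 ± 0.29 SE, edgeR adjusted p = 0.11) and miR-152 (-0.37 ± 0.16 SE, edgeR adjusted p = 0.16), and the most abundant, miR-24, stood at -0.066 ± 0.17 (SE). With perfect matches 1 of the 11 was higher, miR-196a. The counts of miR-17 and miR-20a differed by 0.472% to 1.98% per library, and whether the same reads were counted for both was not tested.

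The X chromosome holds other miRNAs beside the pair. Of 63 other listed miRNAs with hairpins on X alone, 38 were tested. Of these 11 fell, 1 rose (miR-223) and 26 missed the threshold, against 8.6% called lower and 4.75% higher over all miRNAs, and their median log2 fold change was -0.15. The falls are not 11 separate loci: 8 were strands of hairpins within 6.20 kb (miR-322, miR-322*, miR-351, miR-450a-5p, miR-503, miR-503*, miR-542-3p and miR-542-5p), 2 were the strands of the miR-676 hairpin, and the last was miR-3475. The falls included miR-322, a cell cycle restraining miRNA (86.3 ± 6.06 to 24.4 ± 7.0 CPM, SD, n = 2), miR-503 of the same cluster (log2 fold change -2.30 ± 0.35, SE), and miR-676, the most abundant of the list in WT (422 ± 36.6 to 201 ± 0.065 CPM, SD, n = 2). Among the 11 that fell, miR-3475 fell 4.14-fold with all libraries and 3.52-fold without WT replicate 1. For miR-450a-5p the fall was 2.95-fold with all libraries and 2.41-fold without WT replicate 2. Both were named after their values were seen. The nearest X-linked hairpin with a listed miRNA, Mir1198, 11.3 Mb away, gave 170 and 153 CPM in WT and 171 and 158 CPM in TghuTNF (log2 fold change 0.029 ± 0.20, SE). The rise of the pair was therefore not shared by miR-1198, which is made from the other strand. Of the called miRNAs on X other than the pair, 11 fell, and the 1 that rose, miR-223, stood at 0.45 CPM in WT.

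Markers of other cell types were read beside the rise, since cultures can hold other cells. Endothelial cells are a known source of miR-221 and miR-222. The 2 endothelial markers, miR-126-3p and miR-126-5p, are arms of 1 hairpin and so not separate loci, and both were lower in the TghuTNF libraries. Their sum was 110 to 125 CPM in WT and 65.4 to 69.4 CPM in TghuTNF. miR-126-3p fell 1.73-fold, and its fall was 1.59-fold without WT replicate 1 and 1.88-fold without WT replicate 2. The other arm, miR-126-5p, did not pass edgeR. Of these 2 markers, 2 had an unadjusted edgeR p under 0.05, where 128 of 442 miRNAs did over all. DESeq2 called 2 lower and limma-voom 1, where they called 15.6% and 12.9% of all miRNAs in either direction. The endothelial sum was thus lower and the pair higher in TghuTNF, and the part of endothelial cells in the rise was not tested. The 6 blood cell markers summed to 6.63 to 15.9 CPM in WT and 21.2 to 29.1 CPM in TghuTNF. Of 3 tested, miR-223 rose and 2 did not pass edgeR, with 2 of the 3 at an unadjusted p under 0.05. DESeq2 and limma-voom each called 1 higher. miR-142-3p stood at 8.90 ± 5.32 CPM in WT and 18.6 ± 3.17 CPM in TghuTNF (SD, n = 2).

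Epithelial markers summed to 66.7 to 72.7 CPM in WT and 30.1 to 37.1 CPM in TghuTNF, where 1 of 4 tested, miR-203, fell. miR-203 made most of that sum (60.7 ± 2.40 CPM in WT and 22.5 ± 3.82 CPM in TghuTNF, SD, n = 2). The other tested epithelial markers did not pass, with log2 fold changes of 0.44 (miR-200b), 0.30 (miR-200c) and 0.46 (miR-141), so the median of the list, 0.37, had the opposite sign to the change of its sum. The 5 muscle markers summed to 2390 to 3086 CPM in WT and 1750 to 2074 CPM in TghuTNF, and 0 passed edgeR. All 5 had an unadjusted edgeR p under 0.05, where 128 of 442 miRNAs did over all, and 0 were called by DESeq2 or limma-voom. Of these 5, miR-499 was higher in TghuTNF and the others lower, and miR-133a and miR-133b had the same count in 3 libraries and counts of 56 and 55 in WT replicate 2, and whether they are separate measurements was not tested. The most abundant muscle marker was miR-206 (1836 ± 236 and 1268 ± 155 CPM, SD, n = 2). The 4 neural markers summed to 279 to 314 CPM in WT and 418 to 452 CPM in TghuTNF; 3 were tested and 0 passed edgeR, with 1 at an unadjusted p under 0.05, miR-129-5p, the most abundant (edgeR adjusted p = 0.051), and 1 was called higher by DESeq2 and by limma-voom. miR-122, the liver marker, rose 3.85-fold from 2.47 CPM. No marker of these lists was at 0 in all 4 libraries. The blood, neural and liver sums thus moved in the direction of the pair, at total levels below it in TghuTNF, and their part in the rise was not tested.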

How the data were processed

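The authors deposited 1 table per library with raw counts of reads that match each mature miRNA, made with mimap version 3d (37-base reads, at most 2 mismatches, hash length 9, 707 miRNAs), per the file headers. The same deposited tables give, in another column, each count's parts with 0, 1 and 2 mismatches. The sources used here give no miRBase release, adaptor trimming or rule for multiply matching reads.

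Counts were filtered with filterByExpr (442 miRNAs kept), TMM-scaled and tested for genotype alone by quasi-likelihood in edgeR 4.0.16 (R 4.3.3). Tests were two-sided, p-values were Benjamini-Hochberg adjusted over every tested miRNA, and the threshold was 0.05. The SE was derived from the F statistic. Odds of a perfect match and ratios of neighbouring miRNAs (pseudocount 0.5) were tested with limma 3.58.1, the ratio of the pair by exact permutation. Arm ratios were planned, but each hairpin of the pair had 1 listed arm. Hairpin positions came from RefSeq and GENCODE M21 (GRCm38) for 557 of 590 names. The edgeR and limma fits were tested on simulated data.

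Total matches per library were 16680860, 26542371 (WT), 27362819 and 22959408 (TghuTNF). Both members and all lists were chosen with earlier results of these data known. Besides the pair, the miRNAs named were same-seed and closest sequences, the 5 most alike patterns per member, and, per list, up to 4 members by p and the most abundant one. Alternatives were DESeq2 1.42.0, limma-voom, other scaling, filters, mismatch classes, distances and pseudocounts, a replicate block and leaving out each library.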

Additional observations from a re-analysis of the deposited data

How the results depend on the processing

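The rises of miR-221 and miR-222 kept direction and call under 7 other settings (log2 fold change 2.00 to 2.22 and 1.79 to 1.86). Both kept direction without each library in turn (1.70 to 2.43 and 1.73 to 1.90). The spread is then taken from the genotype that keeps both libraries, so calls of such fits are no measure of stability. Both members lost the call with 2-mismatch matches only (1.57 and 2.05), a class added after seeing the data. The count of called miRNAs, 59 of 442 tested (13.3%), was 93 of 590 (15.8%) without a filter. At a mean CPM of at least 100 it was 14 of 135 (10.4%). It was 22 of 352 (6.25%) with 1-mismatch and 0 of 297 with 2-mismatch matches only. Without a library it was 49 to 153, with 449 to 461 miRNAs tested. The count of 153 came without TghuTNF replicate 1, where 449 were tested, a number close to 442. The cause of these differences was not tested. With the replicate number as a block, 87 were called, the pair stood at 2.05 and 1.84, and the odds test again called 0. The labels do not say that numbers mark a shared litter or batch, and deviations of same-numbered libraries correlated at -0.11; with the numbers crossed, a pairing added after seeing the data, 55 were called. Within numbers the log2 ratio of the pair differed by 0.32 and 0.093. Leaving out a library moved that ratio's difference from -0.097 to 0.51, in the fit of neighbours as well, and the odds difference of miR-222 from -0.45 to 0.017; with perfect matches the ratio's difference was 0.49. Neighbouring pairs called were 5 with perfect matches, 1 within 1 kb and 0 without any 1 library, against 3. Depth limits none of the pair's counts, of which the lowest is 2035; the 2 libraries per genotype limit the ratio and the odds.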
